A study of Mus musculus with 4 samples.

Results

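The genes described here make, control and move sterols and fatty acids in mouse T cells. They are 39 named genes, picked by symbol from 50600 genes in the count files, and all 39 were found. They fall into 5 regulators of the sterol regulatory element-binding proteins (SREBPs), 18 enzymes of sterol synthesis, 5 genes of sterol transport, storage and sensing, and 11 enzymes of fatty acid synthesis and modification. They were picked by name, with earlier results of these data known, and no threshold on a measured value was applied.

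The 4 RNA-seq libraries came from primary T cells, strain C57BL/6NJ, and the labels number them as biological replicates 1 to 4 of a single group. The labels name no treatment, leave age and stage as unknown and sex as not collected, and carry 1 donor identifier for all 4, so the SDs and p-values below measure only the spread between these samples, which may be technical. The sample names inside the count files add Th0, activated and 48 h, and a linked protocol is named for CD4+ T cell differentiation. With 1 group there was no comparison between conditions, and the questions open to the data were how high each gene stood, how isoenzymes and partners compared within a library, and how far the libraries differed.

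Cells make cholesterol from acetyl-CoA through the mevalonate pathway, and fatty acids from acetyl-CoA through malonyl-CoA. Both routes are controlled by SREBPs, membrane-bound transcription factors that the escort protein Scap carries from the endoplasmic reticulum to the Golgi for cleavage when sterols are low, and that Insig proteins hold back when sterols are high. Dividing T cells are known to need both routes for new membrane. Liver X receptors switch on genes of sterol export.

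SREBPs bind weakly on their own and are known to act beside NF-Y, which binds the CCAAT box, and Sp1, which binds the GGGCGG box. RefSeq promoter windows (GRCm38.p6), each running from 250 bases before to 50 bases after an annotated start, were available for 31 of the 39 genes. CCAAT was searched on both strands, so it reads ATTGG on the other strand. The 4 windows below are shown because 3 of them hold the most CCAAT matches of the 31 genes, and the fourth, Acat2, is the sterol synthesis gene without one. They are written 5' to 3' in the direction of the gene, with CCAAT or ATTGG in capitals, and in Hmgcs1 also the letters of a sterol regulatory element (SRE), TCACCCCAC. Hmgcs1 lies at chr13:119690101-119690400 on the plus strand, Mvk at chr5:114444019-114444318 on the plus strand, Nsdhl at chrX:72918271-72918570 on the plus strand and Acat2 at chr17:12960676-12960975 on the minus strand.

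Hmgcs1: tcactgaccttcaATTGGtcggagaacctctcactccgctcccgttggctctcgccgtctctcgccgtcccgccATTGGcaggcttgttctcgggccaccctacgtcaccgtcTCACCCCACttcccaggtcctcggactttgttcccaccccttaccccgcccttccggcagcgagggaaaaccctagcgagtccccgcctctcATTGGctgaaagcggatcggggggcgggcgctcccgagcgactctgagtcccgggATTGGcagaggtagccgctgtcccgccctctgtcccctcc
Mvk: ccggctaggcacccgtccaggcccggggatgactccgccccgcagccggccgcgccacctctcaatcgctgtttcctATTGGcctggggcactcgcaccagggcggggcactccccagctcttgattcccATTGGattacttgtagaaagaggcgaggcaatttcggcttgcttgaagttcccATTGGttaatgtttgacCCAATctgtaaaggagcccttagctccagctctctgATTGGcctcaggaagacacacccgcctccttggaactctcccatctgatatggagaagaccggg
Nsdhl: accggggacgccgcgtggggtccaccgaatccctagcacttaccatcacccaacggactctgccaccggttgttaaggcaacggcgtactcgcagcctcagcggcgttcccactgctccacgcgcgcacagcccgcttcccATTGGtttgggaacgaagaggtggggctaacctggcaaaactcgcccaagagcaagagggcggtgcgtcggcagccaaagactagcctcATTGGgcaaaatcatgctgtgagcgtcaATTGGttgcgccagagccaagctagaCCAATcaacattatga
Acat2: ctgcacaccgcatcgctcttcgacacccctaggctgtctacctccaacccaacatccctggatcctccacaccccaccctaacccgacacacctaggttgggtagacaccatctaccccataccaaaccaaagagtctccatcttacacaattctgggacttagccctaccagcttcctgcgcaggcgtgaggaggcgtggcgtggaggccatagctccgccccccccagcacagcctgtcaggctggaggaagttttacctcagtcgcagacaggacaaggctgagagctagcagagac

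The Mvk window held 5 CCAAT matches, the Hmgcs1 and Nsdhl windows 4 each, and the Acat2 window 0. Among genes with a window, 14 of 15 sterol synthesis genes (93.3%) had a CCAAT match in at least 1 window, as did 4 of 5 SREBP regulators and 5 of 8 fatty acid synthesis genes (62.5%) and 1 of 3 genes of sterol transport, storage and sensing (33.3%). The share was 24 of 31 (77.4%) over all the genes described here, against 3748 of 8589 (43.6%) protein-coding genes expressed in these cells (mean of at least 1 TPM, a count scaled for exon length and library total) and 41.1% of every gene in the table. The Sp1 box GGGCGG was in 25 of 31 genes (80.6%), against 70.6% of the expressed protein-coding genes. CACGTG, the palindromic E-box, was in 7 of 31 (22.6%), against 12.2%. The SRE, searched as TCACNCCAC on both strands, matched only in Hmgcs1, where it starts 137 bases before the annotated start, against 1.36% of expressed protein-coding genes. Matches of different motifs can share end letters (ATTGG and GGGCGG share GG, and the SRE and CACGTG share CAC), and each was counted on its own. A match is a run of letters, not a measured binding site.

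**Figure D1:**
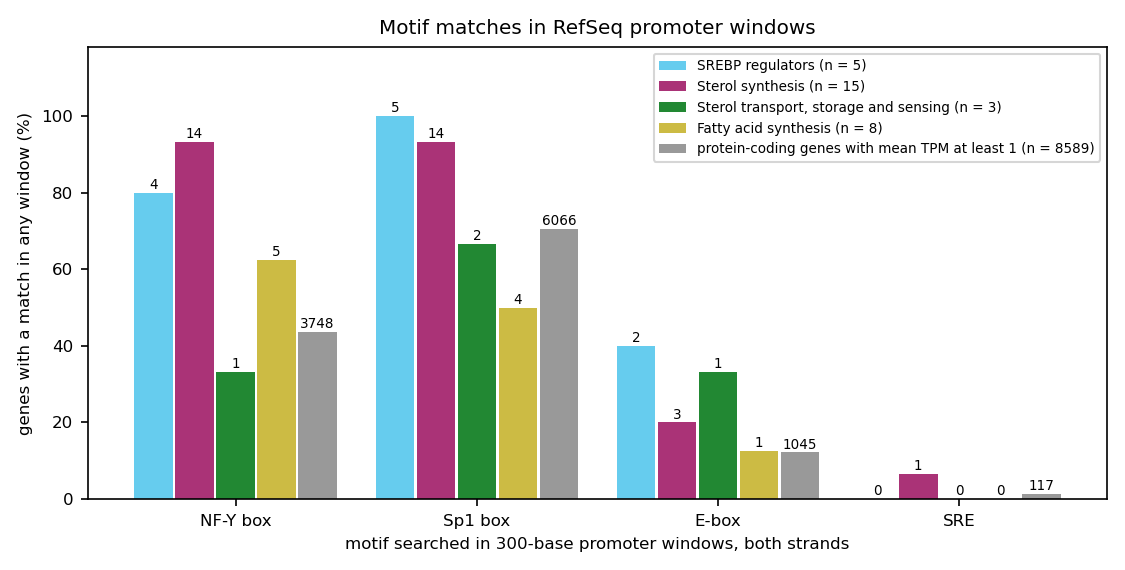
The bars give the percentage of genes with at least 1 match to each motif in their 300-base promoter windows, for the 4 gene groups and for the expressed protein-coding genes, with the number of matching genes above each bar. The CCAAT bar (NF-Y box) of sterol synthesis reaches 93.3% (14 of 15 genes), beside 43.6% for the expressed protein-coding genes.

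The libraries held 56904311, 45110199, 127755788 and 53379135 counted fragments in replicates 1 to 4. Library totals of this size put the limit that a count of 0 allows (3 counts) between 0.0235 and 0.0665 CPM (counts scaled to a common library total, with no length correction), which covers counting error only. All 10 T cell markers lay above 1 CPM, with a summed level of 4260 to 4365 CPM, and Cd4 alone stood at 931 CPM ± 9.79 (SD, n = 4). The summed levels were 4.50 to 5.89 CPM for 8 macrophage markers, 3.32 to 5.71 CPM for 8 B cell markers, 4.88 to 7.33 CPM for 6 dendritic cell markers and 1.90 to 2.95 CPM for 5 natural killer cell markers. Of these, Adgre1 (2.60 CPM) and Cd68 (2.69 CPM) of the macrophage list, Ebf1 (1.53 CPM) of the B cell list, Zbtb46 (5.76 CPM) of the dendritic list and Eomes (2.34 CPM) of the natural killer list lay above 1 CPM. In the macrophage list Lyz2, Marco and Fcgr1 were at 0 and Csf1r had 1 count in all libraries together. They were at most 0.131 CPM for 7 hepatocyte and 0.112 CPM for 6 adipocyte markers, cell types known for strong lipid synthesis, and at most 1.27 CPM for 6 fibroblast and 0.0527 CPM for 6 erythroid markers. In bulk RNA such as this, fewer cells of a type and less RNA per cell cannot be told apart.

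Almost every gene of the set was expressed. Of the 39 genes, 38 lay above 1 CPM and 1, Me1, below it (limma, adjusted p under 0.05 over 23365 genes with a count). Over all those genes 47.4% lay above and 48.3% below 1 CPM, but among expressed protein-coding genes 96.0% lay above, so the count of 38 is close to that background. Levels per length separated the genes further: 31 lay above the level of the median expressed protein-coding gene (32.7 TPM), 7 lay below it, and 1, Fdps, did not pass the test. Of all genes with a count, 22.8% lay above that level and 75.4% below, and of the 10747 expressed protein-coding genes 48.3% lay on each side. The 39 genes had a median of 81.9 TPM, 21 of them were in the top 25% and 10 in the top 10% of expressed protein-coding genes, and they summed to 0.632% to 0.6699% of a library's TPM.

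**Figure D2:**
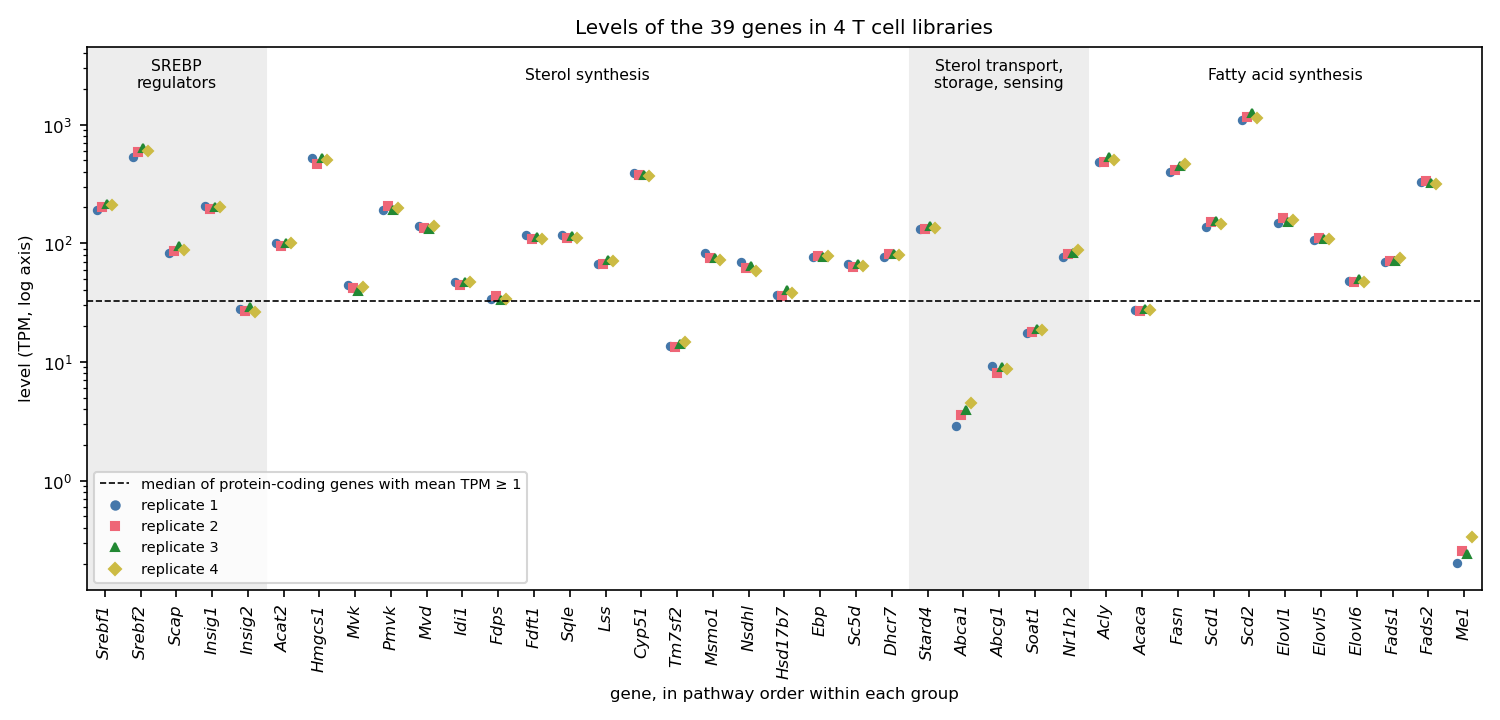
Each point is the level of a gene in 1 library, in TPM on a log axis, with genes in pathway order within the 4 groups and the dashed line at the median expressed protein-coding gene (32.7 TPM). The 4 libraries lie close together for most genes, Me1, Abca1 and Abcg1 stand below 10 TPM, and Scd2 stands highest at 1159 TPM.

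The regulators were led by Srebf2, the gene of SREBP-2, which chiefly drives sterol synthesis. Srebf2 (mm10, chr15:82147266-82205376) measured 536.8, 582.8, 630.7 and 598.0 TPM in replicates 1 to 4, or 587 ± 39.04 (SD, n = 4), rank 220 among 10747 expressed protein-coding genes. Srebf1 (chr11:60199089-60222581), whose SREBP-1 isoforms chiefly drive fatty acid synthesis and which the counts do not separate, measured 191.4, 203.0, 214.5 and 211.7 TPM. The 2 genes did not overlap: Srebf2 was 2.81 to 2.94 times Srebf1 in each library, a mean log2 ratio of 1.52 ± 0.03 (SD, n = 4). All gene pairs here were compared within a library by an exact sign-flip permutation test (two-sided), in which 4 libraries of 4 in the same order give p = 0.13, the smallest value the design allows, so no pair could pass 0.05.

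Insig1 and Insig2 encode the 2 proteins that retain the Scap-SREBP complex, and Insig1 is itself a known SREBP target. Insig1 (chr5:28071363-28078662) measured 206.2, 193.0, 201.8 and 202.3 TPM, while Insig2 (chr1:121304353-121332589) measured 27.6, 26.6, 29.1 and 26.4 TPM. Insig1 was thus 6.93 to 7.66 times Insig2, and Insig2 was the regulator below the median gene (log2 difference -0.25, adjusted p = 2.1e-04 by limma). Scap, the escort, measured 82.5, 85.7, 94.0 and 88.3 TPM, below Insig1 in 4 of 4 libraries, but without length correction the mean log2 ratio of Scap to Insig1 turned from -1.20 to 0.069. With principal transcript lengths Insig1 was 1.49 times Scap. The proteases that cut SREBPs in the Golgi were also present, with Mbtps1 (49.98, 53.6, 51.7 and 48.2 TPM) at 3.47 to 4.00 times Mbtps2 (13.8, 13.4, 14.1 and 13.9 TPM). Mbtps2 overlaps Yy2 on the same strand over 28.4% of its exon sequence, and 73.7% of its principal transcript is similar to Yy2, which had 0 counts, so the level of Mbtps2 is uncertain.

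Sterol synthesis enzymes spanned a 36.0-fold range, from 13.96 TPM for Tm7sf2 to 502 TPM for Hmgcs1, with a median of 77.0 TPM. With principal transcript lengths in place of the counted exon lengths, the range was 14.2-fold. Of the 18, 16 lay above the median gene, as did 48.3% of expressed protein-coding genes, Tm7sf2 lay below it and Fdps did not pass the test.

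In the early, acetyl-CoA to isoprenoid steps, Hmgcs1, the cytosolic synthase of the mevalonate pathway, stood highest (chr13:119690462-119708086). It measured 517.9, 465.2, 521.4 and 504.3 TPM in replicates 1 to 4. With principal transcript lengths for all genes Hmgcs1 stood at 326 TPM on average, though its counted exon length is 0.933 times its principal transcript. Such lengths shift the TPM scale of all genes: Scd2, with a length ratio of 0.9996, fell from 1159 to 807 TPM, and Srebf2 from 587 to 402 TPM. Acat2, the cytosolic thiolase one step earlier, measured 101.3, 94.2, 100.3 and 100.2 TPM, next to 92.6, 92.1, 85.1 and 87.8 TPM for the mitochondrial thiolase Acat1. Acat2 was higher in 4 of 4 libraries by a mean log2 ratio of only 0.15 ± 0.09, and this turned to -0.41 without length correction. Acat2 also shares stretches of at least 95% identity with Acat3 over 65.6% of its principal transcript, and the counting command in the file headers carries no option to count fragments that map to several places.

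The 3 enzymes that turn mevalonate into isopentenyl diphosphate differed in level. Mvk, the first kinase, had the lowest level at 42.2 TPM ± 2.01 (SD, n = 4), Pmvk, the next kinase, stood at 197 ± 7.74 and Mvd, the decarboxylase, at 136 ± 3.82. Per library, Mvk measured 44.5, 41.6, 39.8 and 43.0 TPM and Mvd 138.4, 133.9, 131.5 and 139.6 TPM, so Mvd was 3.11 to 3.30 times Mvk (2.11 on average with principal transcript lengths). Mvk lay above the median gene by 0.37 on the log2 scale, but that difference was -0.34 without length correction and -0.21 against a higher reference, the median of protein-coding genes with mean TPM of at least 10. Idi1, the isomerase that makes the reactive isoprene unit, measured 47.1, 44.2, 46.8 and 47.4 TPM, 7.499 to 10.8 times its paralog Idi2 (5.96, 4.48, 4.33 and 6.32 TPM). Idi1 lay 0.50 above the median gene on the log2 scale, and -0.077 against the higher reference. Similar stretches in other genes cover 33.3% of the principal transcript of Idi1 and 38.1% of that of Idi2.

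Fdps and Fdft1 catalyse successive steps, from isoprene units to farnesyl diphosphate and from there to squalene, the first intermediate reserved for sterols. Fdps (chr3:89093588-89101959) measured 33.9, 35.9, 33.0 and 33.9 TPM, at the level of the median gene (log2 difference 0.07, adjusted p = 0.080 by limma). Fdft1 measured 118.2, 107.9, 113.3 and 108.7 TPM, which is 3.00 to 3.48 times Fdps. This order rests on the length used: the counting gave Fdps an exon length 3.05 times its principal transcript, and with principal transcript lengths the mean log2 ratio of Fdps to Fdft1 turned from -1.71 to 0.27 and Fdps stood at 72.5 TPM ± 2.61 (SD, n = 4), above the median gene, and Fdft1 at 60.3 ± 2.44. Similar stretches in other genes, pseudogenes among them, also covered 91.4% of Fdps and 54.7% of Fdft1. Of these other genes, Gm43738 overlaps Fdps on the same strand over 26.7% of its exon sequence, so the level of Fdps is uncertain.

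After squalene, Sqle, the epoxidase and a known control point of the pathway, measured 118.4, 110.6, 116.0 and 110.4 TPM. Lss, which folds the epoxide into lanosterol, measured 66.9, 66.8, 72.3 and 71.5 TPM. Sqle was 1.54 to 1.77 times Lss in each library, though the mean log2 ratio was -0.24 without length correction. Cyp51 (chr5:4081145-4104746), the lanosterol demethylase, stood at 378 TPM ± 9.19 (SD, n = 4), second among the sterol enzymes and with ranges that did not overlap those of its neighbours in level.

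The next reduction can be done by either of 2 proteins, Tm7sf2 or Lbr, a nuclear envelope protein with sterol reductase activity. Tm7sf2 (chr19:6062821-6068373) measured 13.7, 13.5, 14.04 and 14.6 TPM and Lbr 179.6, 192.9, 195.1 and 187.8 TPM. Lbr was therefore 12.9 to 14.3 times Tm7sf2, or 7.72 times on average with principal transcript lengths, and 15.3% of the Tm7sf2 exon sequence overlaps Vps51 on the same strand. With principal transcript lengths Tm7sf2 stood at 23.01 TPM, still below the median gene. Levels at the remaining steps, by counted exon length, were: Dhcr7, the last reductase, at 79.6 TPM, the isomerase Ebp at 77.4, the methyl oxidase Msmo1 at 76.5, the desaturase Sc5d at 65.4, and the decarboxylating dehydrogenase Nsdhl at 63.4. Hsd17b7, the ketoreductase, was lower at 37.8 TPM ± 2.01 (SD, n = 4), and it lay 0.21 above the median gene on the log2 scale but -0.37 against the higher reference and -0.18 with principal transcript lengths. With those lengths Msmo1 stood at 160 TPM, Dhcr7 at 114, Ebp at 71.4, Nsdhl at 58.05 and Sc5d at 46.3, and Lss at 112 TPM in place of 69.4. For Msmo1 and Lss the counted exon lengths are 3.01 and 2.31 times the principal transcript.

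The genes of sterol transport, storage and sensing had a group median of 18.2 TPM, against 81.9 TPM for all 39. Of the 5, 3 lay below the median gene, as did 48.3% of expressed protein-coding genes and 75.4% of all genes with a count. Stard4, a cytosolic sterol carrier and known SREBP-2 target, was the highest at 134 TPM ± 3.01 (SD, n = 4). Abca1 and Abcg1, exporters of cholesterol and textbook targets of liver X receptors, were the lowest apart from Me1. Abcg1 (chr17:31057698-31115777) measured 9.27, 8.08, 9.06 and 8.76 TPM, with a mean of 8.79 that was 4.27 with principal transcript lengths for all genes. Those lengths also took Abca1, with a length ratio of 1.01, from a mean of 3.70 to 2.60 TPM. Abca1 (chr4:53030787-53159895) measured 2.86, 3.56, 3.90 and 4.47 TPM and lay 3.13 below the median gene on the log2 scale (-3.13 ± 0.26, SD, n = 4; adjusted p = 1.2e-06 by limma). Abcg1 was 1.96 to 3.24 times Abca1 in each library, while without length correction the mean log2 ratio of Abca1 to Abcg1 was 0.084.

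Abca1 was lowest in replicate 1 and highest in replicate 4. The summed level of the 8 macrophage markers was 5.89, 4.50, 5.20 and 5.86 CPM in replicates 1 to 4. Of the 8, 2 lay above 1 CPM (Adgre1 and Cd68), and the part of such cells in the level of Abca1 was not tested.

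Soat1, which esterifies cholesterol for storage, measured 17.5, 17.9, 18.8 and 18.7 TPM, and its paralog Soat2 3.65, 4.21, 5.22 and 3.73 TPM, a ratio of 3.59 to 5.01. Soat1 lay below the median gene by TPM (log2 difference -0.84) but 0.32 above it without length correction. Nr1h2, the gene of liver X receptor beta, measured 75.8, 81.4, 82.2 and 88.1 TPM. Nr1h3, the gene of liver X receptor alpha, measured 0.929, 1.15, 0.616 and 0.817 TPM, and Nr1h2 was 71.0 to 133 times as high.

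Fatty acid synthesis had the highest median of the enzyme groups, at 147 TPM, and the widest range. Of its 11 genes, 9 lay above the median gene, as did 48.3% of expressed protein-coding genes, and Acaca and Me1 lay below it. Acly, which makes cytosolic acetyl-CoA from citrate, measured 482.8, 485.7, 531.0 and 505.0 TPM, 70.2 to 78.8 times Acss2, which makes it from acetate (6.88, 6.16, 7.31 and 7.08 TPM). The counted exon length of Acss2 is 3.47 times its principal transcript, and with principal transcript lengths the mean ratio of Acly to Acss2 was 25.2. Acly and Hmgcs1 overlapped in range, and neighbours in the order of level overlapped in 21 of 38 cases.

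Acaca, the acetyl-CoA carboxylase that supplies malonyl-CoA, stood lower by TPM than the enzymes before and after it. It measured 27.4, 27.1, 28.1 and 27.3 TPM and lay 0.25 below the median gene on the log2 scale (-0.25, adjusted p = 5.8e-05 by limma). That side depends on length, since Acaca has 17074 counted exon bases: it lay 1.71 above the median gene without length correction and 0.059 above with principal transcript length. Its paralog Acacb, the carboxylase at the mitochondrial surface, measured 0.553, 0.929, 0.596 and 0.693 TPM, so that Acaca was 29.1 to 49.6 times as high. On TPM plus 0.1 the mean ratio was 35.3 with counted exon lengths and 55.5 with principal transcript lengths. Fasn (chr11:120805846-120824547), the synthase that uses malonyl-CoA to build palmitate, measured 401.6, 416.6, 447.0 and 465.8 TPM, 14.6 to 17.1 times Acaca, or 9.52 times on average with principal transcript lengths. Similar stretches in Gm5182, a pseudogene with 868 counts, cover 64.3% of the Acaca transcript.

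The desaturase Scd2 (chr19:44293676-44306864), which makes monounsaturated fatty acids, was the most abundant of the 39 genes. It measured 1097, 1164, 1249 and 1126 TPM in replicates 1 to 4, or 1159 ± 66.01 (SD, n = 4), rank 74 of 10747. Its paralog Scd1 measured 136.8, 150.7, 154.4 and 144.8 TPM, so that Scd2 was 7.73 to 8.09 times Scd1. A stretch of 11.4% of the Scd2 transcript is similar to Scd1. The related genes Scd3 and Scd4 had 11 and 22 counts in all libraries together; they were named after their values were seen.

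Among the elongases, Elovl1, which acts on saturated very long chains, measured 148.9, 161.6, 151.9 and 155.5 TPM. Elovl5, which acts on polyunsaturated chains, measured 106.3, 109.7, 109.0 and 107.8 TPM. Elovl6, which extends palmitate, measured 48.4, 47.2, 50.2 and 47.0 TPM and lay 0.56 above the median gene on the log2 scale, but -0.022 against the higher reference. The order Elovl1, Elovl5, Elovl6 held in 4 of 4 libraries without overlap.

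The desaturases of polyunsaturated fatty acids were Fads2 at 326.6, 333.8, 324.2 and 318.4 TPM and Fads1 at 68.8, 70.9, 71.1 and 74.96 TPM. Fads2 was 4.25 to 4.75 times Fads1, and 70.4 to 94.1 times Fads3 (4.64, 3.55, 3.83 and 3.55 TPM). The counted exon length of Fads2 was 0.479 times its principal transcript. With principal transcript lengths for all genes its level fell from 326 to 109 TPM, which is 2.18 times Fads1 and 43.7 times Fads3 on average. Part of that fall is a shift of the TPM scale. Scd1, with a length ratio of 1.001, fell from 147 to 102 TPM, and Fads1, with 0.9988, from 71.5 to 49.7 TPM.

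Me1, cytosolic malic enzyme, a source of NADPH for fatty acid synthesis, had 13, 13, 34 and 20 counts in replicates 1 to 4. These give 0.289 CPM ± 0.062 (SD, n = 4), below 1 CPM (adjusted p = 7.0e-05 by limma). The mitochondrial enzyme Me2 measured 140.7, 132.5, 138.3 and 136.9 TPM, between 410 and 696 times Me1, and Me3 had 0 counts. Similar stretches, chiefly of Gm7049, which had 0 counts, cover 62.5% of the Me1 transcript.

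**Figure D3:**
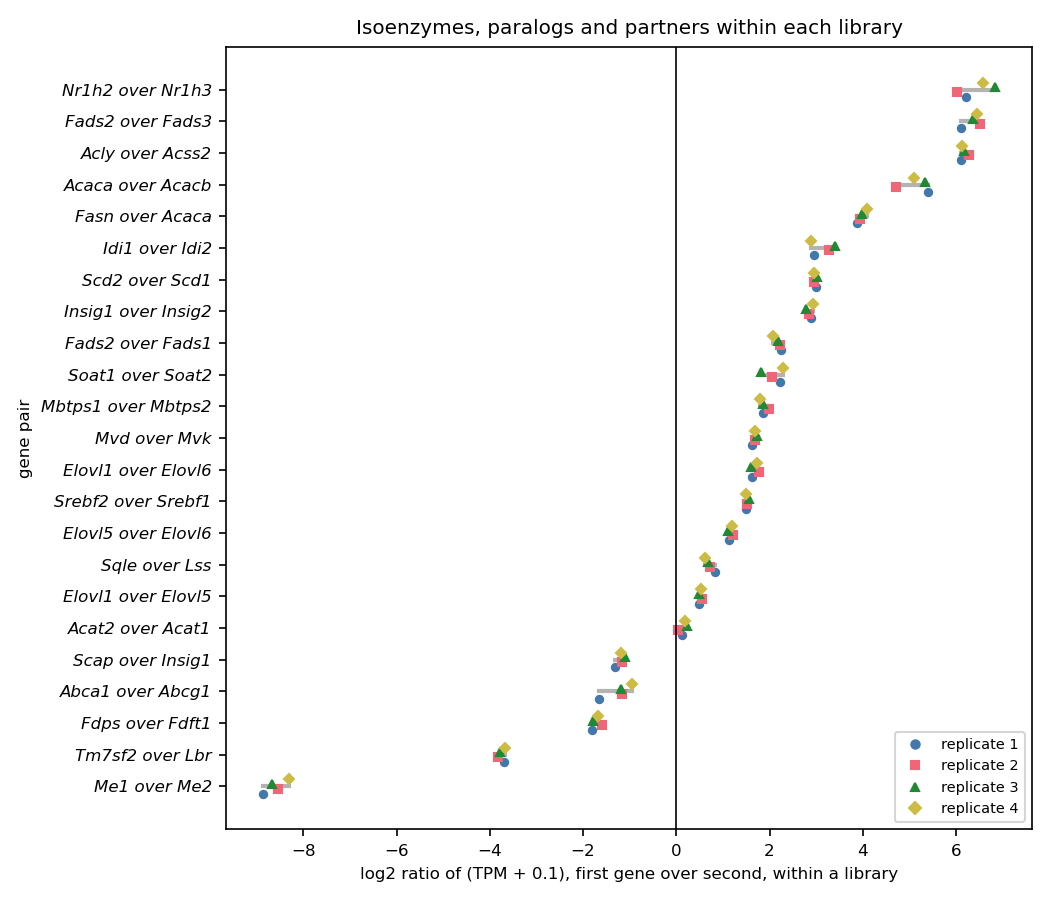
Each point is the log2 ratio of the first gene to the second within 1 library, on TPM plus 0.1, and the grey bars span the 4 libraries. In 18 of 23 pairs the first gene was higher in all 4 libraries and in the other 5 the second was, so no pair had a mixed order.

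Of 55 other genes of these pathways, 41 lay above 1 CPM, 9 below, 2 did not pass in either direction (Elovl4 and Pparg, named after their values were seen) and 3 had no count (Cyp7b1, Thrsp and Me3). Over all genes with a count 47.4% lay above 1 CPM, and among expressed protein-coding genes 96.0% did. The 55 genes had a median of 21.2 TPM. The 4 highest were Acsl5, which activates fatty acids to their CoA esters, at 479 TPM ± 8.79 (SD, n = 4), Tecr, the last reductase of chain elongation, at 259 ± 4.56, Rxra, the partner of liver X receptors, at 224 ± 10.6, and Tmem97, a sterol-responsive membrane protein, at 209 ± 8.52. Cyp7b1 acts on oxysterols, and Thrsp is a lipogenic gene of liver and fat.

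The 39 genes varied little between replicates. Their median coefficient of variation was 3.94%, against 5.23% for expressed protein-coding genes. These values were not matched for level, since the median level was 81.9 TPM for the 39 genes and 32.7 TPM for the expressed protein-coding genes. Of the 39, 37 were under 10%, the exceptions being Abca1 at 18.2% and Me1 at 21.4%. All 39 passed the filter on low counts. By edgeR's goodness-of-fit test with Benjamini-Hochberg adjustment, 0 were called variable, where 0.399% of 13279 genes were. For 39 genes, 0 is close to that share. At an unadjusted p under 0.05 there was 1, Abca1 (adjusted p = 0.57). With DESeq2 size factors, also 0 of the 39 were called, among 55 called over all genes.

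The small deviations of each library are given by group, as a description without a test. For sterol synthesis, replicate 1 was the highest library in 9 of 18 genes and replicate 2 the lowest in 9 of 18, with median log2 deviations of 0.04 and -0.03. Over all 13279 genes, replicate 1 was the highest library in 29.6% and the lowest in 28.4%, and replicate 2 the lowest in 28.3%. For fatty acid synthesis, replicate 1 was the lowest library in 8 of 11 genes and the highest in 0, with a median of -0.05. For the regulators, replicate 2 lay above the mean in 0 of 5 genes and replicates 3 and 4 in 4 of 5 each. For sterol transport, storage and sensing, replicates 1 to 4 lay above the mean in 1, 0, 4 and 5 of 5 genes. Over all 13279 genes, 49.8% to 51.0% lay above their mean in each library. Genes of a group share these libraries, so their counts are not independent.

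**Figure D4:**
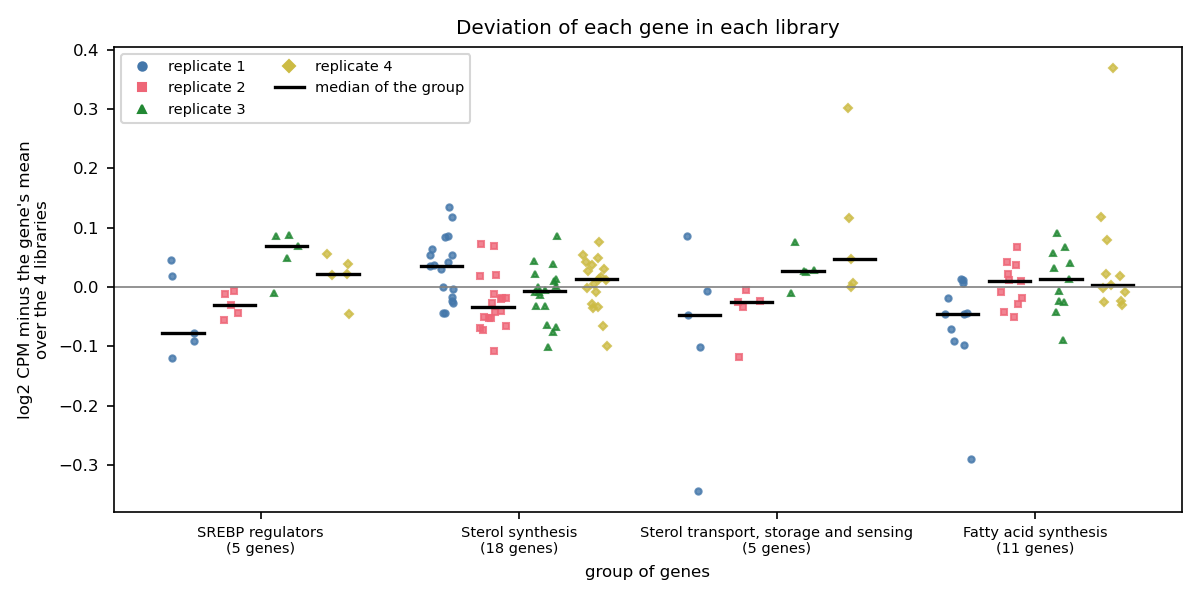
Each point is the log2 CPM of a gene in 1 library minus its mean over the 4 libraries, and the black bars are group medians. In sterol synthesis replicate 1 has the highest median (0.04) and in fatty acid synthesis the lowest (-0.05), and the points beyond 0.2 on either side are Abca1 and Me1.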

How the data were processed

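Total RNA-seq of 4 T cell libraries of 1 group was analysed. The deposited values are raw counts of fragments per gene, made per the file headers with featureCounts 1.4.6-p4 (both ends mapped, strand option 2) over exons of GENCODE M13, from STAR alignments. The assembly is mm10 per the labels, and the sources used here give neither the STAR version nor the trimming. The assay label reads total RNA-seq, but the name of a linked protocol says PolyA+. The other column used is the summed exon length of each gene, deposited by the authors in the same files. Symbols matched 50376 of 50600 genes (99.6%) through GENCODE M21.

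CPM used library totals, and TPM the counts and exon lengths. Levels were tested with limma 3.58.1 on log2 values plus 0.1 (intercept only, trend) against 1 CPM, and against the median of 10747 protein-coding genes with mean TPM of at least 1, with Benjamini-Hochberg adjustment over 23365 genes. Variability used edgeR 4.0.16 (TMM, filterByExpr, trended dispersion). Pairs used an exact sign-flip permutation test. Similar stretches came from blastn 2.17.0+ (at least 95% identity over 100 bases). Alternatives were other pseudocounts, thresholds, filters, scalings (DESeq2 1.42.0), lengths, and leaving out each replicate. Scripts were tested on data with known answers. Other software was numpy 2.4.6, pandas 2.3.3 and matplotlib 3.10.9 under python 3.11.15, and R 4.3.3.

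The genes, lists and tests were chosen with earlier results of these data known. By the rule for naming, the regulators, the 5 highest and 5 lowest genes and both genes of each pair have values per library, and of the other pathway genes those in pairs, the 4 highest and those at 0 counts were named. An item of these lists is not reported here.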

Additional observations from a re-analysis of the deposited data

Results flagged for a closer look

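Among 62 sets of 4 library values examined, 1 had a library far from the other 3. Acat2, the cytosolic thiolase, stood at 94.2 TPM in replicate 2 and at 100.2 to 101.3 TPM in the others, so that the gap made up 0.843 of the whole range, above the limit of 0.83 for 4 samples. Chance gives such a gap in about 1 set in 20.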

How the results depend on the processing

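Over 111 results and 1025 alternative values, the counts of genes kept within 1.5 times their reported size except in 1 case: 11 genes, in place of 7, lay below the median gene when the reference was protein-coding genes with mean TPM of at least 10. The numbers ranged from 36 to 38 above 1 CPM, 27 to 32 above the median gene, 16 to 19 pairs with the first gene higher, 40 to 42 other pathway genes above 1 CPM and 0 variable genes throughout; leaving out each replicate in turn gave 38, 31, 18, 41 to 42 and 0. The adjusted p of Abca1 in the variability test was lowest, 0.051, with a common dispersion. All 15 changes of sign came from 3 alternatives. Without length correction the log2 differences from the median gene were -0.34 for Mvk, 0.32 for Soat1 and 1.71 for Acaca, and the log2 pair ratios 0.069 for Scap/Insig1, -0.41 for Acat2/Acat1, -0.24 for Sqle/Lss and 0.084 for Abca1/Abcg1. Against the higher reference they were -0.21 for Mvk, -0.077 for Idi1, -0.52 for Fdps, -0.37 for Hsd17b7 and -0.022 for Elovl6. With principal transcript length, chosen after seeing the data, they were -0.18 for Hsd17b7 and 0.059 for Acaca, and 0.27 for Fdps/Fdft1, while Fdps passed at 1.14. Ratios that kept their side but moved by over 1.5 times without length correction included 13.5 for Idi1/Idi2, 18.7 for Soat1/Soat2, 1.36 for Elovl1/Elovl6, 1.23 for Elovl5/Elovl6 and 254 for Me2/Me1. These are mean ratios of values plus 0.1, an addition that weighs on Me1 at 0.289 CPM. The 410 to 696 times given for Me2 over Me1 are plain TPM ratios, so 254 does not reflect length alone. At 10 CPM, Abca1 and Abcg1 no longer passed. Depth limits Me1 (80 counts in all) the most.

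No paired analysis was possible because the labels give 1 group.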
